A study of Mus musculus with 9 samples.

Results

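Cholesterol and fatty acid synthesis were examined through 32 named genes, read from the annotated probe sets that carry their symbols, with 16 enzymes of the sterol arm, 11 enzymes of the fatty acid arm and 5 genes of control and sterol transport kept apart. Of the 32 genes, 29 had a probe set of 1 symbol among the 22180 genes so measured, and all 29 were among the 15526 genes bright enough to be tested (14 sterol, 5 control and 10 fatty acid genes). Acat2, Idi1 and Scd2 were not analysed here, since the annotation used gives Acat2 no probe set and places Idi1 and Scd2 only on probe sets shared with other symbols. The cells were MYCCaP, a mouse prostate cancer line from a tumour driven by a MYC transgene under a prostate-specific, androgen-responsive promoter. The parental line grew in medium with the androgen dihydrotestosterone and was measured on 3 arrays labelled technical replicates, counted as 1 sample. The other 6 arrays held lines from tumours that recurred in castrated mice, 3 from mice given vehicle and 3 from mice given AZD1208, an inhibitor of the PIM kinases, each grown without dihydrotestosterone and labelled a biological replicate. All 7 samples share the MYC transgene. The recurrent lines differ from the parental line in castration, growth in a mouse and androgen in the medium at once, and these cannot be told apart. The labels do not say whether each line came from its own mouse, so p-values measure only the spread between these lines.

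Cells make cholesterol from acetyl-CoA through the mevalonate pathway, by way of farnesyl pyrophosphate, squalene and lanosterol. Fatty acids are made from the same acetyl-CoA, first as palmitate and then as longer and unsaturated acids. Both arms are driven by the SREBP transcription factors, which the sterol sensor Scap carries from the endoplasmic reticulum to the Golgi for cleavage when sterols are low, and which the Insig proteins hold back when sterols are high. In prostate cells, androgens are known to raise SREBP activity and lipid synthesis.

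Values were log2 intensities as deposited, with medians between 6.22 and 6.36 on the 9 arrays. Between technical arrays of the parental line a gene's SD had a median of 0.09 over all genes tested. The array of AZD1208 line 3 had the narrowest spread of values among the recurrent lines (interquartile range 2.87, against 3.01 to 3.12) and the lowest array quality weight of the 7 samples (0.34). AZD1208 line 2 (0.58) and vehicle line 1 (0.63) had the next lowest weights, and the remaining samples had weights of 1.24 to 2.87. Among epithelial markers Cldn3, a tight junction protein, stood at 12.43 in the parental line and at 11.65 to 12.43 in the recurrent lines. The epithelial adhesion gene Epcam (4.99 in the parental line) and the splicing factor Esrp1 (5.35) had means below the brightness limit of 5.81 used for testing, so the epithelial label rests on the other 6 of 8 markers measured.

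AZD1208 lines and vehicle lines were compared first, which asks whether PIM inhibition in the host mouse left a difference in lipid synthesis genes. No member passed the threshold (adjusted p of 1 for each, limma), and of all genes tested none passed either (0.0%), while 81 had an unadjusted p under 0.05. Of the 29 members 12 had higher and 17 lower means in AZD1208 lines, where 54.8% of all genes were lower. The difference was within 1 SE for 25 of them. Median log2 differences were -0.02 for sterol enzymes, 0.01 for control genes and -0.08 for fatty acid enzymes, against -0.02 for all genes. The sterol median turned to 0.05 with quantile normalization and to 0.16 without vehicle line 2, and it was -0.19 without AZD1208 line 2. The fatty acid median ranged from -0.01 without vehicle line 2 to -0.19 with array weights.

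Scd1 encodes the stearoyl-CoA desaturase that makes oleate and palmitoleate. Its log2 level was 11.16, 11.29 and 10.97 on the parental arrays, 10.56, 11.57 and 10.90 in vehicle lines 1, 2 and 3, and 9.99, 10.08 and 10.75 in AZD1208 lines 1, 2 and 3. AZD1208 lines 1 and 2 lay below every other sample, while AZD1208 line 3 lay between vehicle lines 1 and 3, so the groups overlapped. The mean was 1.66-fold lower in AZD1208 lines (10.27 ± 0.42 against 11.01 ± 0.51, SD, n = 3 each; log2 difference -0.73, SE 0.31, unadjusted p = 0.0484, limma). Scd1 was the 1 member of 29 with an unadjusted p under 0.05, a share set beside 0.522% of all genes. The difference was -0.45 without vehicle line 2 (unadjusted p = 0.162, limma) and -0.97 without AZD1208 line 3, and with the line number as a block the unadjusted p was 0.035.

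Fads2, the delta-6 desaturase of polyunsaturated fatty acids, stood at 13.10, 13.12 and 13.14 on the parental arrays. It stood at 13.10, 12.94 and 12.93 in vehicle lines 1, 2 and 3 and at 12.86, 12.65 and 12.93 in AZD1208 lines 1, 2 and 3. Each AZD1208 line lay below each vehicle line, by a margin under the second decimal for the closest pair, and Fads2 was the 1 member of 29 whose groups did not overlap, where 3.39% of all genes had no overlap (1.98% with AZD1208 lower). The log2 difference was -0.18 (SE 0.15, unadjusted p = 0.275, limma), and -0.09 without AZD1208 line 2. Fads1, the delta-5 desaturase that works beside it, was at 11.95, 11.88 and 11.99 on the parental arrays, 12.14, 12.34 and 12.07 in the vehicle lines and 11.90, 12.09 and 12.19 in the AZD1208 lines. Its groups overlapped, with a log2 difference of -0.12 (SE 0.16). It was at -0.04 without vehicle line 2 or without AZD1208 line 1.

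Fasn, the synthase that builds palmitate, was at 12.28, 12.38 and 12.60 in vehicle lines 1, 2 and 3 and at 12.16, 11.88 and 12.42 in AZD1208 lines 1, 2 and 3. AZD1208 lines 1 and 2 were the lowest of the 6 lines and AZD1208 line 3 lay within the vehicle range. The log2 difference was -0.27 (SE 0.19, unadjusted p = 0.196, limma), and it was -0.13 without AZD1208 line 2. Pmvk, the phosphomevalonate kinase of the sterol arm, was at 8.81, 9.01 and 9.47 in the vehicle lines and at 8.82, 8.81 and 8.50 in the AZD1208 lines. Vehicle line 3 stood above the other 5 lines, and AZD1208 line 3 was the lowest. The log2 difference was -0.39 (SE 0.21, unadjusted p = 0.102, limma), and -0.20 without vehicle line 3. Fdft1, which encodes squalene synthase, had a log2 difference of 0.19 (SE 0.21), which was 0.40 without vehicle line 2 and 0.09 without vehicle line 3. It was at 11.01, 11.61 and 10.99 in the vehicle lines and at 11.40, 11.52 and 11.27 in the AZD1208 lines, all 3 of which lay inside the vehicle range.

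**Figure D1:**
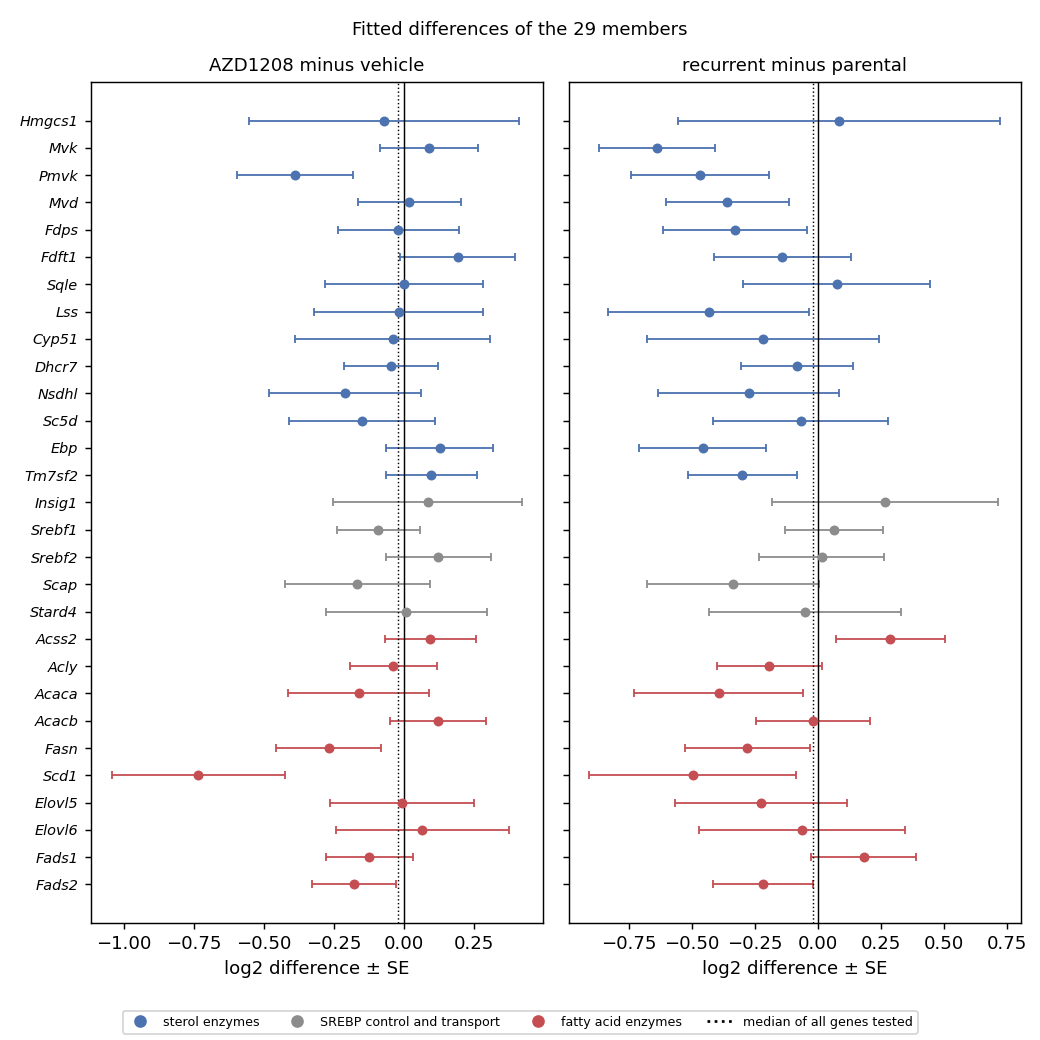
Fitted log2 difference of each of the 29 members (points, bars are SE) for AZD1208 minus vehicle lines on the left and for recurrent minus parental on the right, coloured by arm, with the median of all genes tested as a dotted line. On the left Scd1 has the lowest value (-0.73), and on the right 12 of 14 sterol enzymes lie left of 0.

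The recurrent lines were next compared with the parental line, which asks how the tumour lines that grew back in castrated mice differ from their androgen-fed parent. No member passed the threshold (adjusted p of 1 for each, limma), and of all genes tested none passed either (0.0%), while 429 had an unadjusted p under 0.05. The sterol enzymes had a median log2 difference of -0.29 with 12 of 14 lower, and the fatty acid enzymes one of -0.21 with 8 of 10 lower. Over all genes the median was -0.02 and 54.4% were lower, so the arms lay 0.27 and 0.18 below it. The 5 control genes had a median of 0.01, with 2 lower. In vehicle and in AZD1208 lines apart, which share the parental sample, the sterol median was -0.26 and -0.30 and the fatty acid median -0.13 and -0.22. Centring the arrays on the median of the genes tested moved the median of all genes by -0.11, and the sterol median was then -0.39. The fatty acid median was -0.13 without vehicle line 1.

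Early steps of the mevalonate pathway differed in how they stood to the parental line. Hmgcs1, the HMG-CoA synthase that opens the pathway, was at 9.04, 9.25 and 8.87 on the parental arrays, 9.19, 9.80 and 8.51 in vehicle lines 1, 2 and 3 and 8.80, 10.09 and 8.41 in AZD1208 lines 1, 2 and 3. Its recurrent lines lay on both sides of the parental mean of 9.05, 3 above and 3 below. Mvk, the mevalonate kinase, was at 9.97, 9.81 and 10.10 on the parental arrays, 9.11, 9.50 and 9.22 in the vehicle lines and 9.56, 9.35 and 9.18 in the AZD1208 lines. All 6 recurrent lines lay below all 3 parental arrays, with a mean 1.56-fold lower (log2 difference -0.64, SE 0.23, unadjusted p = 0.0265, limma). Mvk was the 1 member with an unadjusted p under 0.05, where 2.76% of all genes had one. With the parental arrays taken as 3 samples its adjusted p was 0.0589 (limma), when 1.0% of all genes and no member passed.

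Pmvk, the next kinase, was at 9.46, 9.24 and 9.41 on the parental arrays, and 5 of 6 recurrent lines lay below them (log2 difference -0.47, SE 0.27, unadjusted p = 0.129, limma). Vehicle line 3, at 9.47, was the exception. Mvd, the decarboxylase that yields isopentenyl pyrophosphate, was at 9.62, 9.31 and 9.65 on the parental arrays, 9.07, 9.26 and 9.15 in the vehicle lines and 8.98, 9.05 and 9.51 in the AZD1208 lines. Each line lay below the parental mean of 9.53, AZD1208 line 3 by 0.02, and the log2 difference was -0.36 (SE 0.24). Fdps, which makes farnesyl pyrophosphate, had a log2 difference of -0.33 (SE 0.29). Its line values ran from 11.57 in AZD1208 line 1 to 12.28 in AZD1208 line 2.

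Among the later sterol steps, Ebp, a sterol isomerase, was at 10.43, 10.37 and 10.70 on the parental arrays, 9.80, 10.01 and 10.12 in the vehicle lines and 9.88, 10.42 and 10.02 in the AZD1208 lines. All lines lay below the parental mean of 10.50, AZD1208 line 2 being the nearest (log2 difference -0.46, SE 0.25, unadjusted p = 0.11, limma). Tm7sf2, a sterol reductase, was at 7.76, 7.65 and 7.95 on the parental arrays, 7.32, 7.60 and 7.38 in the vehicle lines and 7.33, 7.67 and 7.60 in the AZD1208 lines. All 6 lines again lay below the parental mean, with AZD1208 line 2 just above the lowest parental array (log2 difference -0.30, SE 0.22). Lss, which closes squalene epoxide into lanosterol, was at 9.83, 9.76 and 9.85 on the parental arrays, 8.78, 9.91 and 9.47 in the vehicle lines and 9.24, 9.69 and 9.17 in the AZD1208 lines. Vehicle line 1 was lowest and vehicle line 2 alone exceeded the parental mean (log2 difference -0.43, SE 0.40), and the difference was -0.28 without vehicle line 1.

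The remaining sterol enzymes differed from the parental line by less than their SE. Sqle, the squalene epoxidase, was at 10.56, 10.68 and 10.60 on the parental arrays, 10.52, 11.04 and 10.50 in the vehicle lines and 10.36, 11.26 and 10.44 in the AZD1208 lines. The lines numbered 2 lay above every parental array and the other 4 lines lay below every one, for a log2 difference of 0.07 (SE 0.37). Cyp51, the lanosterol demethylase, was at 9.54, 9.56 and 9.65 on the parental arrays, 9.06, 10.01 and 9.07 in the vehicle lines and 9.47, 9.79 and 8.77 in the AZD1208 lines, with the same lines above and below. Its log2 difference was -0.22 (SE 0.46), and it was -0.38 without vehicle line 2 and -0.08 without AZD1208 line 3. Fdft1 differed by -0.14, which was -0.24 without vehicle line 2 and -0.09 without vehicle line 3. Nsdhl, a sterol dehydrogenase, differed by -0.28, and Sc5d and Dhcr7, which act near the end of cholesterol synthesis, by -0.07 and -0.08.

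In the fatty acid arm Acss2, which makes acetyl-CoA from acetate, was at 8.09, 7.91 and 7.96 on the parental arrays, 8.16, 8.33 and 8.18 in the vehicle lines and 8.28, 8.55 and 8.13 in the AZD1208 lines. All 6 lines lay above all parental arrays (log2 difference 0.29, SE 0.22, unadjusted p = 0.225, limma), and Acss2 was the 1 member above the parental mean in every line, where 11.8% of all genes were. Acly, which makes acetyl-CoA from citrate, had a parental mean of 11.56 and lay below it in every line (11.19 to 11.49; log2 difference -0.19, SE 0.21). Acaca, the acetyl-CoA carboxylase that commits carbon to fatty acids, was at 9.74, 9.75 and 9.51 on the parental arrays, 8.78, 9.61 and 9.67 in the vehicle lines and 9.21, 9.30 and 9.07 in the AZD1208 lines. Vehicle line 1 and the AZD1208 lines lay below every parental array, and vehicle lines 2 and 3 lay among them (log2 difference -0.39, SE 0.33; -0.25 without vehicle line 1). Acacb, the second carboxylase, differed by -0.02.

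Fasn was at 12.66, 12.51 and 12.53 on the parental arrays, and vehicle line 3 alone of the 6 lines exceeded their mean of 12.57 (log2 difference -0.28, SE 0.25). Scd1 lay below its parental mean of 11.14 in every line but vehicle line 2 (log2 difference -0.50, SE 0.41). Fads2 lay below the parental mean in every line, by 0.02 in vehicle line 1 and by up to 0.47 in AZD1208 line 2 (log2 difference -0.22, SE 0.20). Fads1 had a log2 difference of 0.18 (SE 0.21), with 5 of 6 lines above the parental mean. The elongases Elovl5 and Elovl6 differed by -0.23 and -0.06, each within 1 SE. Mvk, Mvd, Ebp, Tm7sf2, Acly and Fads2 were therefore the members below the parental mean in all 6 lines, 6 of 29, where 10.8% of all genes were. The count was 12 when arrays were centred on the median of the genes tested, where 15.6% of all genes were below in all lines, and 10 without vehicle line 3, where 16.5% were.

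The 5 control genes lay on both sides of the parental line, with each difference within 1 SE. Srebf1, whose products include the SREBP that acts mainly on fatty acid genes, was at 9.01, 8.88 and 9.0 on the parental arrays, 8.99, 9.04 and 9.18 in the vehicle lines and 8.85, 9.01 and 9.08 in the AZD1208 lines. These ranges overlapped, with a log2 difference of 0.06 (SE 0.19) that turned to -0.04 when arrays were centred on the median of the genes tested. Srebf2, whose product acts mainly on sterol genes, was at 11.02, 10.92 and 11.02 on the parental arrays, 10.88, 11.10 and 10.82 in the vehicle lines and 10.74, 11.17 and 11.27 in the AZD1208 lines. AZD1208 lines 2 and 3 were its highest and AZD1208 line 1 its lowest (log2 difference 0.01, SE 0.25). Scap, the SREBP escort, had a log2 difference of -0.34 (SE 0.34), with values from 9.22 in vehicle line 1 to 10.06 in vehicle line 3. These are transcript levels, and the cleavage that activates SREBPs was not measured.

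Insig1, which retains SREBPs and is itself an SREBP target, was at 10.03, 10.10 and 10.06 on the parental arrays, 10.58, 10.52 and 9.77 in vehicle lines 1, 2 and 3 and 10.28, 11.00 and 9.85 in AZD1208 lines 1, 2 and 3. Lines 1 and 2 of both groups lay above every parental array and lines 3 of both groups lay below (log2 difference 0.27, SE 0.45). The difference was 0.11 without AZD1208 line 2 and 0.40 without AZD1208 line 3. Stard4, a carrier of sterols between membranes, was at 7.86, 8.04 and 7.55 in the vehicle lines and 7.66, 8.44 and 7.38 in the AZD1208 lines, against 7.86 to 7.91 on the parental arrays. Its lines numbered 2 were the highest and its lines numbered 3 the lowest, and the log2 difference was -0.05 (SE 0.38).

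**Figure D2:**
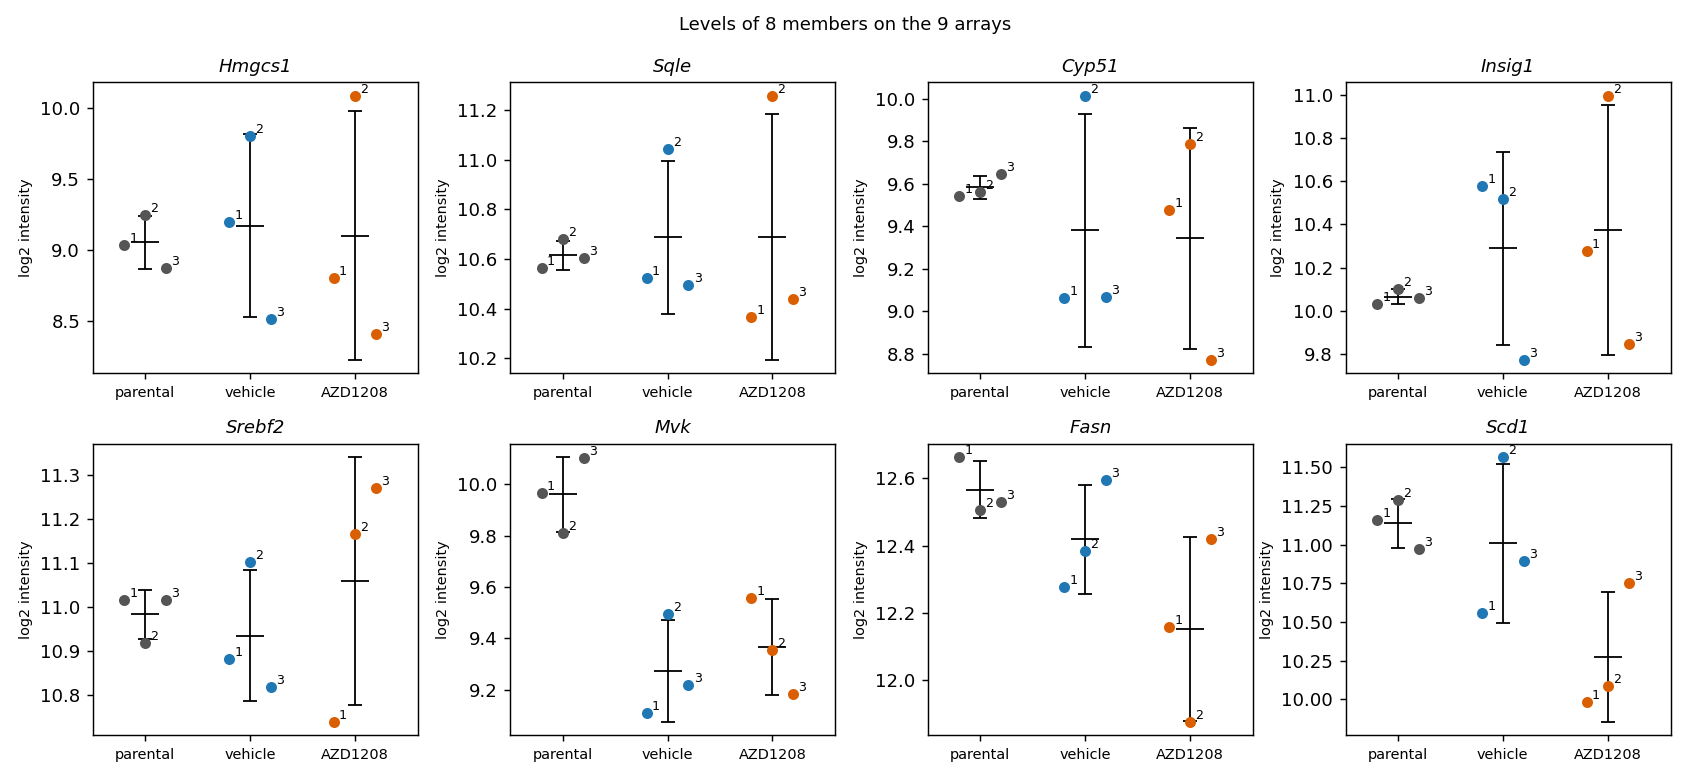
Log2 intensity of 8 members on each of the 9 arrays, by group, with points numbered by the replicate number in the labels and bars giving mean ± SD of the 3 arrays or lines. For Hmgcs1, Sqle, Cyp51 and Srebf2 vehicle line 2 is the highest vehicle line, Mvk lies below the parental arrays in all 6 recurrent lines, and the spread of the lines is wider than that of the technical arrays for Hmgcs1, Sqle, Cyp51 and Insig1.

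The median sterol enzyme stood 0.46, 0.38, 0.43 and 0.50 below the parental line, as log2 differences, in vehicle lines 1 and 3 and AZD1208 lines 1 and 3, in that order. In vehicle line 2 and AZD1208 line 2 it stood 0.04 above it. These 2 positions turned on the scaling: with quantile normalization they were -0.04 and 0.03, and with centring on the median of the genes tested -0.12 and -0.18, where the medians of all genes in the same lines were -0.19 and -0.27. In the values as deposited the medians of all genes in the 6 lines lay between -0.04 and 0.04. Of the 14 sterol enzymes 0 were above the parental mean in AZD1208 lines 1 and 3 each, 1 was in vehicle line 3, 2 were in vehicle line 1, and 8 were in each of the lines numbered 2. The fatty acid arm showed a narrower range of line medians, from -0.27 in AZD1208 line 1 to -0.01 in vehicle line 2.

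**Figure D3:**
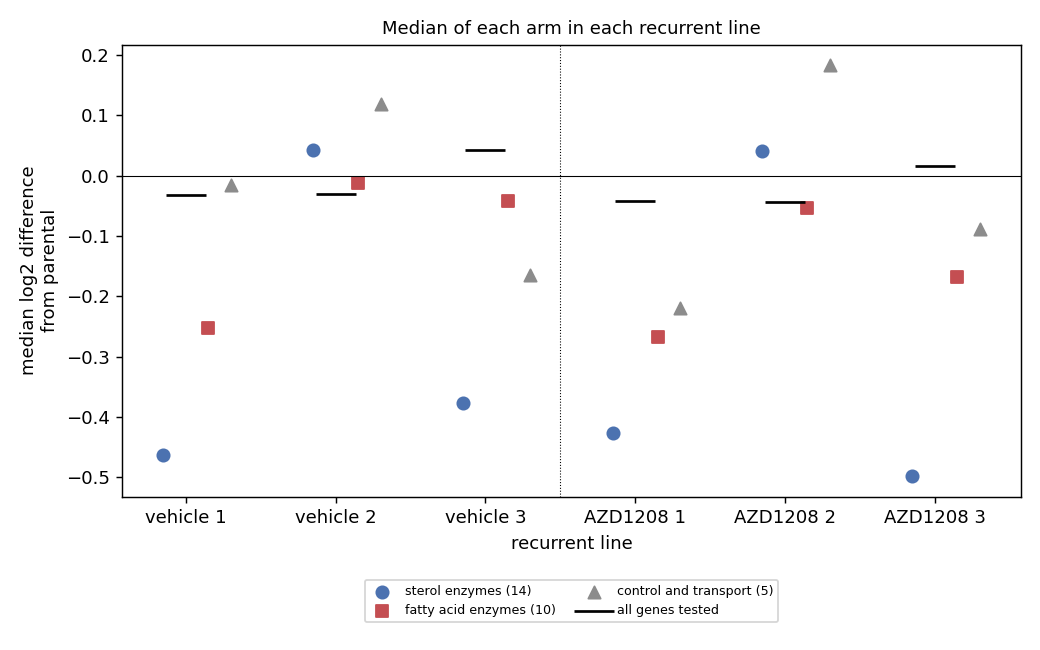
Median log2 difference from the parental mean in each recurrent line, for sterol enzymes (circles), fatty acid enzymes (squares), control and transport genes (triangles) and all genes tested (dashes). The sterol median is at 0.04 in vehicle line 2 and in AZD1208 line 2 and between -0.50 and -0.38 in the other 4 lines.

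Vehicle line 2 and AZD1208 line 2 were the 2 highest of the 6 lines for 9 of 14 sterol enzymes (64.3%), namely Hmgcs1, Fdps, Fdft1, Sqle, Lss, Cyp51, Dhcr7, Nsdhl and Tm7sf2. The same held for 8.22% of all genes tested, for 4 of 10 fatty acid enzymes (Acss2, Acly, Elovl5 and Elovl6) and for 1 of 5 control genes (Stard4). The pattern was noticed in these values and is a description with no test. The count in the sterol arm was 7 with quantile normalization (6.99% of all genes), 5 when arrays were centred on the median of the genes tested (4.18%), and 9 or 10 when any of the other 4 lines was left out. Both lines carry the number 2 in the labels, and no label says what the number marks.

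The widest range over the 6 lines belonged to Hmgcs1, from 8.41 in AZD1208 line 3 to 10.09 in AZD1208 line 2, a 3.21-fold range. Its spread between lines had an SD of 0.69 (n = 6), against 0.19 between the technical parental arrays. Scd1 followed with a log2 range of 1.58, but in another order of lines: vehicle line 2 was its highest at 11.57 and AZD1208 line 2 was near its lowest at 10.08. Cyp51 had a range of 1.25, Insig1 one of 1.22 and Lss one of 1.13. Fasn was lowest in AZD1208 line 2 (11.88), where Hmgcs1, Sqle and Insig1 were highest. The residual SD within groups had a median of 0.28 for sterol enzymes, 0.37 for control genes and 0.20 for fatty acid enzymes, and of 0.24 for all genes.

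**Figure D4:**
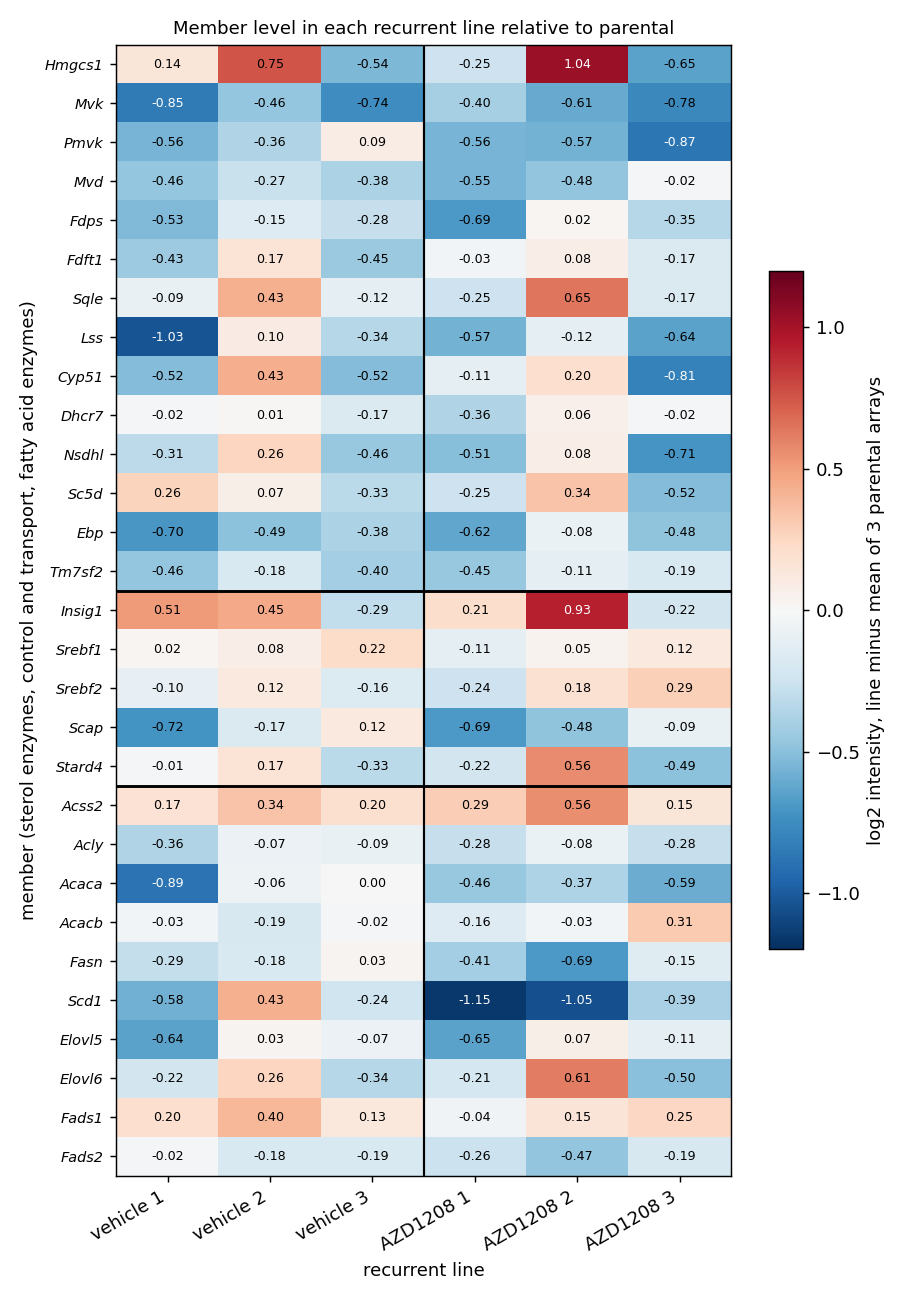
Log2 difference of each member from its parental mean in the 6 recurrent lines, one row per gene and one column per line, with sterol enzymes on top, control and transport genes in the middle and fatty acid enzymes below (red above, blue below parental). In the columns of vehicle line 2 and AZD1208 line 2 8 of 14 sterol enzymes each are above 0, and Scd1 is at 0.43 in the first and -1.05 in the second.

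Markers of other cell types were read beside these values. Levels were summed over all measured genes of a list, those too dim to be tested included, and given as log2. Summed macrophage markers (8 genes, 5 of them tested) stood at 9.46 to 9.73 in lines 1 and 3 of both groups and 9.61 to 9.70 on the parental arrays. They stood at 10.13 in vehicle line 2 and 10.20 in AZD1208 line 2. Cd14, a receptor for bacterial lipopolysaccharide, was highest in the same lines (8.81 and 8.86, parental 8.09). The list did not move together: 3 of its 5 tested genes were above the parental mean and 2 below in each of those lines. Csf1r and C1qa were below in both, and Csf1r was lowest in vehicle line 2 (5.93, parental 6.33). The pan-leukocyte gene Ptprc had a mean below the limit of 5.81 and lay between 4.49 and 5.12 in the 6 lines. Lyz2, also with a mean below the limit, was at 7.10, 6.97 and 4.80 in vehicle lines 1, 2 and 3. It was at 5.18, 6.42 and 4.74 in AZD1208 lines 1, 2 and 3 (parental 5.18). Summed fibroblast markers (9 genes, 6 of them tested) ranged from 10.14 to 10.81 in vehicle lines and 10.19 to 11.25 in AZD1208 lines. AZD1208 line 2 was the highest, and the parental arrays lay at 9.87 to 9.98. Pdgfra, a growth factor receptor, was at 8.24 to 10.03 in the lines against 7.47, and Pdgfrb at 9.78 in AZD1208 line 2 against 6.85, while the collagen genes Col1a1, Col1a2 and Col3a1 and Thy1 were below the parental mean in every line but AZD1208 line 3. Dcn, Lum and Fap of that list had means below the limit. Of these, Dcn was at 6.68 in AZD1208 line 2, against 5.30 to 5.83 in the other lines and 5.37 in the parental line. Summed adipocyte markers (7 genes, 5 of them tested) ranged from 9.42 to 10.03 in the lines and were 10.42 to 10.46 on the parental arrays. Adipoq and Lep were below the limit. Fabp4, a fatty acid carrier and the brightest of the list in the parental line, was at 6.28 to 8.58 in the lines against 9.71. Pparg was also below its parental mean of 7.49 in all 6 lines (6.98 to 7.43). Plin4, a lipid droplet protein, was above its parental mean in all 6 (7.10 to 8.06), and Plin1 and Cidec lay on both sides of theirs. Summed endothelial markers (8 genes, 6 of them tested) lay between 8.95 and 9.33 in the lines and at 9.20 to 9.21 on the parental arrays. The part of these cell types in the members' values was not tested, and fewer cells of a type and less RNA per cell cannot be told apart.

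Promoter sequences are shown for 5 members the results turn on: Hmgcs1, Cyp51 and Insig1 for their range over the lines, Mvk for its place below the parental arrays and Fasn for the fatty acid arm. They are RefSeq windows of build GRCm38.p6 and run through the 250 bases before the annotated start. The windows are chr13:119690101-119690350, plus strand for Hmgcs1, chr5:4104698-4104947, minus strand for Cyp51, chr5:28071162-28071411, plus strand for Insig1, chr5:114444019-114444268, plus strand for Mvk and chr11:120824548-120824797, minus strand for Fasn. Each reads 5′ to 3′ along its gene. Capitals mark CACNCCAC, the core of the sterol regulatory element bound by SREBPs, and CCAAT, the box bound by NF-Y, a factor that assists SREBPs, each on either strand (ATTGG is CCAAT on the other strand).
Hmgcs1: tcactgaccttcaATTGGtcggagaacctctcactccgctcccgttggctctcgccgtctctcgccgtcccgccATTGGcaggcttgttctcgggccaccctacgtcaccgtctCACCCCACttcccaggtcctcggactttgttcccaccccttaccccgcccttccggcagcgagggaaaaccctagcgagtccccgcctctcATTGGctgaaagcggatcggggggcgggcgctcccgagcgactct
Cyp51: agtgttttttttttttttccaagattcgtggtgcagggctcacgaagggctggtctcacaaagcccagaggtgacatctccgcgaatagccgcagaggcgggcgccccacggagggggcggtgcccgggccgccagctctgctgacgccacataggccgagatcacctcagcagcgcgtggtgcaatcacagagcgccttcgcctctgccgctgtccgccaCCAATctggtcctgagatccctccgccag
Insig1: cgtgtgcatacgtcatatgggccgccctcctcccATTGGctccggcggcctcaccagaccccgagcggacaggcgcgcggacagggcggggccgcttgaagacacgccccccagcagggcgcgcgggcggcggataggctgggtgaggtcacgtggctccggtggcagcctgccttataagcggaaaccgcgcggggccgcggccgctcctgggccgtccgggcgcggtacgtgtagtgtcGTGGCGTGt
Mvk: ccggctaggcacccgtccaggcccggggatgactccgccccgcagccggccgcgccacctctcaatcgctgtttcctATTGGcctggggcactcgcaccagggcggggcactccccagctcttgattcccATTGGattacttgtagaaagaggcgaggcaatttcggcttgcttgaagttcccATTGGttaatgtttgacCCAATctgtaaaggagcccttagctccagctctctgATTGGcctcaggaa
Fasn: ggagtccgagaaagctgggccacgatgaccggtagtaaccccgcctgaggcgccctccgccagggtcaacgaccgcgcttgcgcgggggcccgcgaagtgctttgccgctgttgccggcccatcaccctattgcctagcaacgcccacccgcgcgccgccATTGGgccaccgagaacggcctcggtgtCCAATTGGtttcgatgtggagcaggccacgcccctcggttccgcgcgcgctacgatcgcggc

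Of the 32 named genes 25 had at least 1 window in the table used, searched on both strands over 250 bases before and 50 after the start, and a gene with several windows counted if any held the motif. TCACNCCAC, which contains CACNCCAC, was in 1 of 25 members, Hmgcs1, where its first base lies 137 bases before the start, and in 1.54% of the 12128 tested genes with a window. CACNCCAC was in 3 of 25 (12.0%), namely Hmgcs1, Insig1 and Acat2, and in 7.87% of tested genes. CCAAT was in 20 of 25 (80.0%), against 41.4% of tested genes. By arm it was in 12 of 13 sterol enzymes (92.3%), 5 of 8 fatty acid enzymes (62.5%) and 3 of 4 control genes (75.0%). Mvk held it 5 times. GGGCGG, the box bound by Sp1, was in 76.0% of members and 62.2% of tested genes, and CACGTG, an E-box, in 20.0% and 10.9%. The arms differed for GGGCGG, which was in 12 of 13 sterol enzymes (92.3%), 4 of 4 control genes and 3 of 8 fatty acid enzymes (37.5%). These matches describe the letters of these windows, and binding was not measured.

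Neighbouring steps were described from 6 lists of other lipid genes, with 59 of their 69 entries tested and 0 past the threshold in either comparison (0.0% of all genes in each). Among 8 further enzymes of sterol synthesis and related steps 4 were lower and 4 higher in recurrent lines (median 0.04), each within 1 SE. The lower were Msmo1 (-0.03), Hsd17b7 (-0.13), Idi2 (-0.24) and Lbr. The higher were Ggps1 (0.46), Acat1 (0.11), Aacs (0.16) and Cyb5r3 (0.10). The lines numbered 2 were the 2 highest for 2 of the 8. Lbr, the lamin B receptor, which is also a sterol reductase, had a log2 difference of -0.31 (SE 0.33; -0.18 without vehicle line 1). Of 8 genes listed for SREBP processing, which include the sterol transfer protein Stard3, 7 were higher (median 0.33). AZD1208 line 3 differed, with 3 of the 8 above the parental mean and 5 below. Mbtps1, the site-1 protease that cleaves SREBPs, was at 11.39 in the parental line and between 11.68 and 12.27 in the 6 lines, all above it (log2 difference 0.57, SE 0.25, unadjusted p = 0.0552, limma). Of these 8 genes 2 lay above the parental mean in every line, where 11.8% of all genes did. Of 7 genes of cholesterol handling 6 were higher (median 0.32). The exporter Abcg1 was lower (log2 difference -0.11, SE 0.24), and the storage enzymes Soat1 and Soat2 had no probe set of 1 symbol. Among the 6 higher were Mylip, a ubiquitin ligase of lipoprotein receptors, by 0.91 (SE 0.48), and Npc2, a lysosomal cholesterol carrier, by 0.46 (SE 0.26).

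Of 16 other genes of fatty acid metabolism 12 were lower in recurrent lines (median -0.16). The list includes 3 that are not enzymes: Mlxipl (-0.02), Thrsp (-0.03) and the citrate carrier Slc25a1 (0.12). Idh1, which makes NADPH in the cytosol, differed by 0.73 (SE 0.30, unadjusted p = 0.0406, limma) and lay above the parental mean of 10.09 in all 6 lines. Acsl5, an acyl-CoA synthetase, differed by -0.94 (SE 0.51) and lay below 10.77 in all 6. Of the 16 genes 2 lay above and 5 below the parental mean in every line, where 11.8% and 10.8% of all genes did. Of 10 glycerolipid genes 7 were lower (median -0.07), while the phosphatidate phosphatase Lpin2 was at 10.75 to 11.40 in the lines against 10.15 in the parental line (0.91, SE 0.26, unadjusted p = 0.00917, limma). Of 10 fatty acid oxidation genes 6 were lower (median -0.04). Pdk4, a kinase that shuts off pyruvate dehydrogenase, was at 9.16 to 10.06 in the lines against 10.68 in the parental line (-0.95, SE 0.30, unadjusted p = 0.0146, limma). Acadm, the medium-chain acyl-CoA dehydrogenase, was at 11.48 to 12.30 against 11.06 (0.71, SE 0.29, unadjusted p = 0.044, limma). Genes were named here for the smallest p of their list. Idh1, Lpin2, Pdk4 and Acadm alone of the 59 genes had an unadjusted p under 0.05, as did 2.76% of all genes. Between AZD1208 and vehicle lines the medians of the 6 lists lay between -0.13 and 0.01. The SREBP processing list was lower in AZD1208 lines for 8 of 8 genes, each within 1 SE, where 54.8% of all genes were lower. AZD1208 line 3 was the lowest line for 6 of the 8 (24.1% of all genes). Against the parental line the list's median was 0.46, 0.33 and -0.0039 in AZD1208 lines 1, 2 and 3. It was 0.41, 0.33 and 0.24 in vehicle lines 1, 2 and 3. Mbtps2, the site-2 protease, had a difference between the groups of 0.01 without AZD1208 line 3. Npc1, a lysosomal cholesterol transporter, differed by -0.51 (SE 0.31), and by -0.18 without vehicle line 1, its highest line at 11.40 (10.40 and 10.41 in the other vehicle lines).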

How the data were processed

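RNA of 9 cultured mouse samples was measured on Affymetrix Mouse Gene 2.0 ST arrays. The authors deposited 1 log2 intensity per probe set and array, made with oligo per the submitters' processing notes. The oligo version and the steps of background correction, normalization and summary are not given, and the deposited scale was kept. Of 41345 probe sets 23521 carry 1 gene symbol, 1814 several and 16010 none in the platform annotation used. Probe sets with several symbols were left out, and the probe set of highest mean stood for a gene with several (22180 genes). The 30% of genes with the lowest means (below 5.81) were left out, leaving 15526.

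The 3 parental arrays were averaged to 1 sample, which is assumed to vary like the lines. The 7 samples were fitted with lmFit and eBayes (limma 3.58.1, R 4.3.3; group as the only term; 4 residual and 3.36 prior degrees of freedom), two-sided, with Benjamini-Hochberg adjustment over the genes tested and a threshold of 0.05. The fit was tested on simulated data. The number of arrays limits the precision.

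The members and lists were chosen with earlier results of these data known. Values in every sample are given for Hmgcs1, Sqle, Insig1, Srebf1, Srebf2, Fasn and Scd1 in any case (Scd2 by the same rule, had it been measured), for the 6 and 8 members of smallest unadjusted p in the comparisons of AZD1208 with vehicle and of recurrent with parental, and for the 5 of widest range over the lines. Stard4 and the marker genes named were added after their values were seen, as were centring on the median of the genes tested and the values without single lines for counts and for genes of other lists. Of each other list up to 2 genes of smallest p per comparison are named.

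Vehicle and AZD1208 lines share replicate numbers in the labels. Deviations from group means correlated across genes at 0.15, 0.12 and 0.53 for lines 1, 2 and 3. Vehicle line 1 and AZD1208 line 2 correlated at 0.26, above the same-number value of either line. The data therefore do not settle whether the numbers pair the lines. The fit without a block was kept for the values given unless stated. Alternatives were other normalization and centring, brightness limits of 0% and 50%, the mean of probe sets, parental arrays as 3 samples, array weights, an intensity trend, the replicate block and leaving out each line.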

Additional observations from a re-analysis of the deposited data

Results flagged for a closer look

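Acacb, the acetyl-CoA carboxylase found at mitochondria, stood at 6.65 in AZD1208 line 3 and between 6.15 and 6.32 in the other 5 recurrent lines, a gap of 0.33 that takes up 0.66 of the whole range and so exceeds Dixon's 95% critical value for 6 values. The array of that line also had the narrowest interquartile range among the lines (2.87), and its part in this value was not tested. All 29 members were screened in this way over the 6 lines, and chance marks about 1 in 20 such sets of values.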

How the results depend on the processing

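The medians of both arms below the parental line kept their sign under every alternative run, from -0.39 to -0.25 for sterol and from -0.31 to -0.13 for fatty acid enzymes. No member passed the threshold in any comparison under any alternative. The number of genes called in recurrent against parental was 0, but 2 with centring on the median of the genes tested, 156 with the parental arrays as 3 samples and 1 with array weights. It was 53 for vehicle against parental with the arrays as 3 samples. For AZD1208 against parental the same settings gave 2, 41 and 2, and leaving out single lines gave 0 to 1. With the replicate number added as a block, 0 genes were called for AZD1208 against vehicle, Scd1 stayed at -0.73, and the block changed no other call. Centring on the median of the genes tested changed 2 counts, to 5 sterol enzymes highest in the lines numbered 2 and to 12 members below parental in all lines (6 to 10 with single lines left out).

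Differences near 0 changed sign. For AZD1208 minus vehicle this held with quantile normalization for Hmgcs1 (0.021), Lss (0.060) and Cyp51 (0.048), and with centring on the median of the genes tested for Lss (0.018). Centring on the array median gave -0.0059 for Mvd and -0.025 for Sqle. Array weights gave -0.15 for Mvd, -0.24 for Sqle, -0.041 for Ebp, -0.063 for Tm7sf2 and -0.11 for Srebf2, and a sterol median of -0.18. With single lines left out Hmgcs1 ranged from -0.57 to 0.28, Mvk from -0.0051 to 0.20, Mvd from -0.14 to 0.12, Sqle from -0.28 to 0.18, Lss from -0.32 to 0.25, Cyp51 from -0.26 to 0.28, Ebp from -0.028 to 0.24, Insig1 from -0.22 to 0.35 and Acss2 from -0.018 to 0.19. For recurrent minus parental, centring on the median of the genes tested gave -0.023 for Hmgcs1, -0.033 for Sqle, -0.042 for Srebf1 and -0.092 for Srebf2. Srebf1 was at -0.0066 with quantile normalization and Srebf2 at -0.078 with array weights. With single lines left out Hmgcs1 ranged from -0.17 to 0.26, Sqle from -0.070 to 0.15 and Srebf2 from -0.040 to 0.093. The cause was not tested. Without detection calls, no level was called absent, and differences of dim members may come out too small.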
